A study of Sus scrofa with 6 samples.

Results

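Solute carriers are membrane proteins that move sugars, amino acids, organic acids, nucleotides and ions across the plasma membrane and the membranes of organelles. They were followed in the loin muscle (longissimus dorsi) of 3 Shaziling and 3 Yorkshire piglets. The members were the probe sets whose symbol in the deposited table began with SLC and a digit or whose title held the words solute carrier family, 101 of 23999 non-control probe sets. Of these, 80 were found by symbol and 21 by title alone. After the old names had been updated, 91 carried 1 gene name each and covered 70 genes. The other 10 had only a placeholder name, several genes, or a symbol that conflicted with the current gene of its ID.

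All piglets were males of 25 days with no treatment named in the labels, and total RNA from each was hybridised to 1 Affymetrix porcine array. Shaziling is an indigenous Chinese pig and Yorkshire a lean commercial one. The labels describe the 3 piglets of each breed as full siblings from a farm that kept that breed. An effect of breed cannot be told apart from one of litter or farm, and each p-value rests on the spread among siblings. The values are log2 MAS5 signals, each with a call of Present, Marginal or Absent. Present calls covered 56.3% to 59.9% of all probe sets on the Shaziling arrays and 58.2% to 60.6% on the Yorkshire arrays. All 9 muscle fibre marker genes on the array were Present on all 6 arrays, while the 1 erythrocyte marker gene on it was Present on none.

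Skeletal muscle depends on several families of these carriers. GLUT4, made from SLC2A4, brings glucose into the fibre under insulin, and the monocarboxylate transporters of the SLC16 family move lactate together with a proton. The SLC25 family links mitochondria to the cytosol by exchanging ADP for ATP and by importing phosphate, acylcarnitine and other metabolites. Zinc enters the cytosol through the SLC39 family and leaves it through the SLC30 family.

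A probe set was tested when 3 or more of the 6 arrays called it Present, regardless of breed. This left 45 member probe sets for 36 named genes, among 14413 probe sets in all. The file grades the annotation of each probe set by letter, and of the 45, 33 had A, 5 B, 2 C and 5 E. Grade E applied to SLC16A3, SLC30A5, the bright SLC3A1 set, the brighter SLC7A7 set and the set titled as similar to SLC10A5. Outside the members it applied to both tested SLC18A2 sets, BSG, MT1A and the FABP4 set with the larger difference. The match of such sets to their genes was not tested. No member passed an adjusted p of 0.05 in limma, 0 of 45, against 31 of 14413 tested probe sets (0.215%). The lowest adjusted p of a member was 0.323. At an unadjusted limma p under 0.05 there were 5 of 45 members, 3 higher and 2 lower in Shaziling. That is 11.1%, against 10.4% of all tested probe sets, of which 4.38% were higher and 6.02% lower. Across the 16 versions of the analysis that were run the members past the adjusted threshold remained 0, with 2 to 13 members at an unadjusted p under 0.05. The number of members tested ran from 32 to 101 with the filter. The 13 of 45 came with array weights, where 2948 of all 14413 tested probe sets had such a limma p. The 2 of 45 came without Shaziling 6 and without Yorkshire 1, where 1096 and 1020 of 14413 had it.

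Of the 36 tested genes, taken with 1 probe set each, the difference of Shaziling minus Yorkshire was above 0 for 15 and below 0 for 21. Their median log2 fold change was -0.15, against -0.06 over 4549 tested named genes. The median without Shaziling 5 was 0.02. The SE of the log2 fold change had a median of 0.31 over the members and ran from 0.11 to 1.26. For 24 of the 45 probe sets the 95% interval lay wholly within 1 log2 unit of no difference, so a difference of 2-fold in either direction was outside the interval. For the other 21 the interval reached past 1 log2 unit on at least 1 side. In tissue RNA, fewer cells of a type and less RNA per cell cannot be told apart.

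Solute carriers were detected less often than the array as a whole, which is given as a description with no test. Of the 101 probe sets, 32 (31.7%) were Present on all 6 arrays, against 47.9% of all non-control probe sets. Another 47 (46.5%) were Present on none, against 28.8%. Of the remaining 22, 13 were Present on 3 to 5 arrays and 9 on 1 or 2. The share detected differed between roles. Among mitochondrial carriers 9 of 10 probe sets were tested, among nucleoside and nucleotide sugar carriers 9 of 12, among amino acid carriers 7 of 17 and among metal ion carriers 7 of 15. Among hexose carriers 5 of 15 were tested, among inorganic ion carriers 3 of 16 and among the vitamin C and choline-like carriers 0 of 5. Groups were made by family number, so the hexose group also held SLC5A5, an iodide carrier, which was not tested. The group of monocarboxylate and fatty acid carriers, which also held sulfate, bile acid and organic ion families, had 3 of 9 tested. The 3 were SLC16A3, the sulfate carrier SLC13A4 and a set titled as similar to SLC10A5. Both probe sets of the scaffold proteins that carry an SLC9 symbol were tested.

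**Figure D1:**
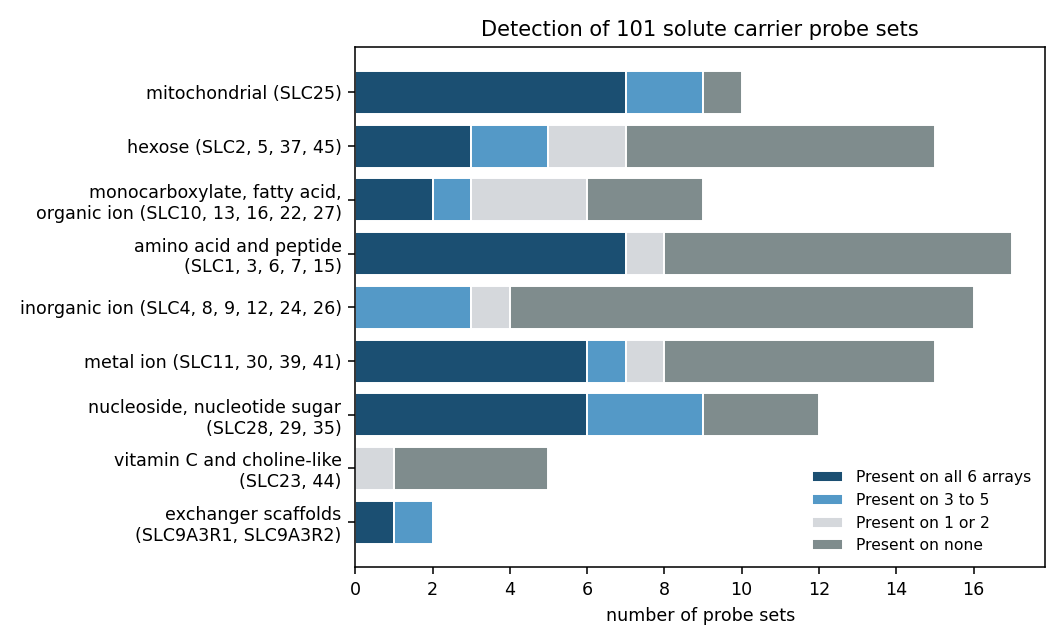
Number of solute carrier probe sets in each role group (horizontal axis), divided by the number of arrays on which they were called Present. Dark blue marks all 6 arrays and dark grey marks none. Inorganic ion carriers had 12 of 16 probe sets Present on none, and mitochondrial carriers 1 of 10.

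A call of Absent says that a probe set was not told apart from its mismatch probes, not that the mRNA was missing. This bears on SLC2A4 itself, whose 3 probe sets were Present on no array of either breed. The other facilitative glucose transporters of the SLC2 family fared alike. SLC2A2, known from liver, SLC2A3, known from neurons, and SLC2A8, an intracellular transporter, were Present on no array, and SLC2A1, the transporter of red cells and many growing cells, was Present on 1 Yorkshire array. No Shaziling array and 1 Yorkshire array had a Present call for SLC16A1, the MCT1 lactate transporter. SLC27A1, a fatty acid transport protein of muscle, was Present on 0 Shaziling arrays and 2 Yorkshire arrays. Its log2 signals were 6.10, 5.17 and 4.89 in Shaziling piglets 4, 5 and 6, against 6.69, 5.92 and 6.21 in Yorkshire piglets 1, 2 and 3, which overlap. SLC1A5, a glutamine carrier, SLC8A1, the sodium-calcium exchanger known from heart, SLC11A1, a metal carrier of macrophages, SLC29A1, a nucleoside carrier, SLC4A4, a sodium-bicarbonate cotransporter, SLC22A17, a lipocalin receptor, and SLC44A4, of the choline-like family, were likewise Present on no array. No probe set here was named for SLC2A12, SLC6A6, SLC6A8, SLC7A5, SLC8A3, SLC12A2, SLC20A1, SLC20A2, SLC22A5, SLC25A11, SLC25A13, SLC27A4, SLC30A1, SLC38A2, SLC38A4, SLC40A1, SLC4A1 or SLC11A2.

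**Figure D2:**
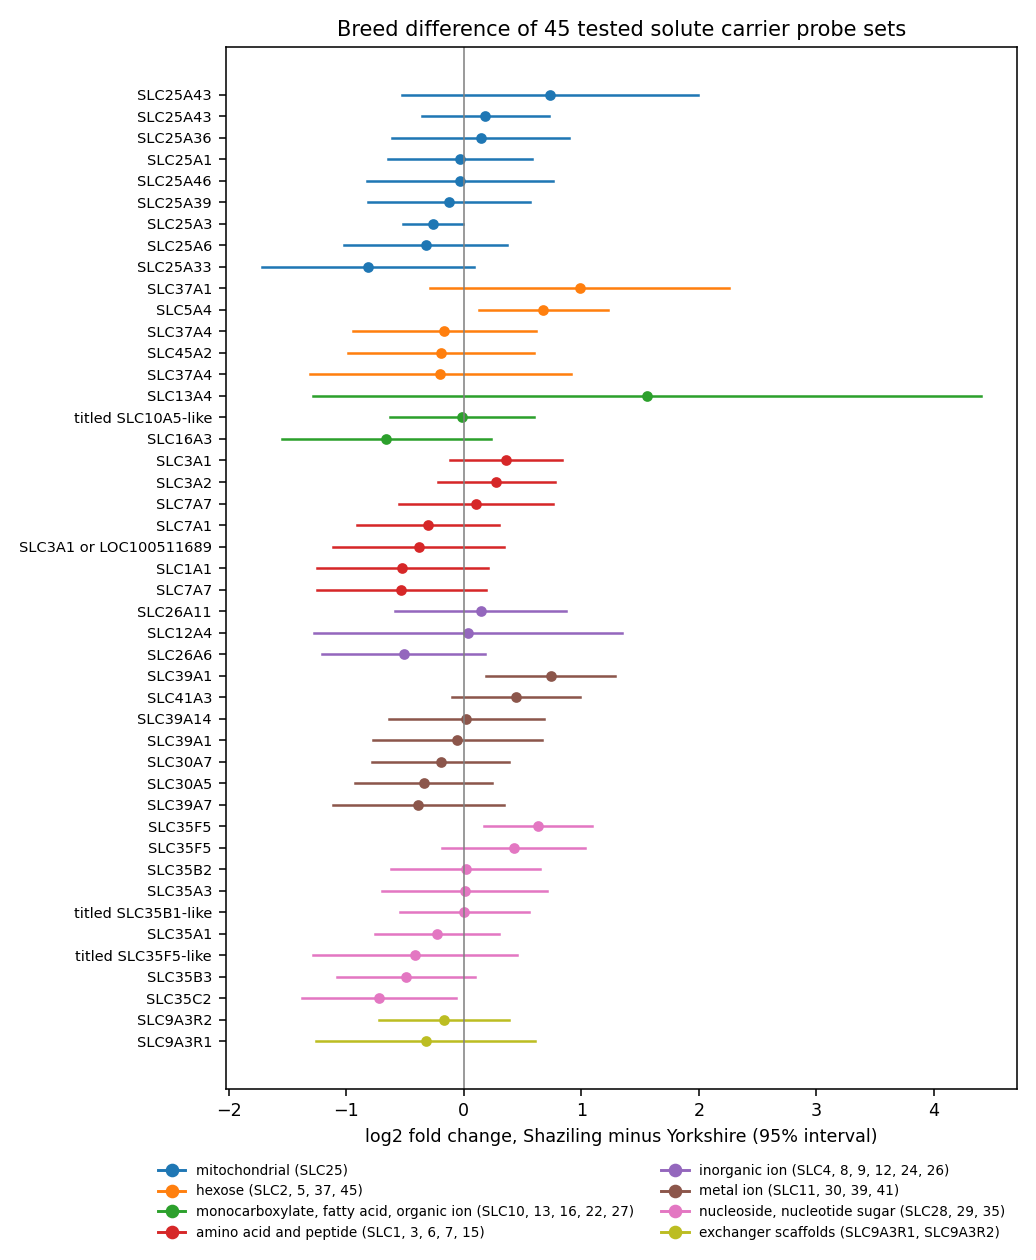
Log2 fold change, Shaziling minus Yorkshire, of the 45 tested solute carrier probe sets with the 95% interval of the limma model, coloured by role group; 1 row is 1 probe set. Most intervals cross 0, none of the probe sets passed the adjusted threshold, and SLC13A4 has the widest interval.

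Mitochondrial carriers included the brightest members. SLC25A3, which imports phosphate for ATP synthesis, had log2 signals of 14.52, 14.38 and 14.30 in Shaziling piglets 4, 5 and 6, against 14.68, 14.67 and 14.63 in Yorkshire piglets 1, 2 and 3. Every Shaziling signal lay below every Yorkshire signal, by a narrow margin. The difference was a log2 fold change of -0.26 (SE 0.11, 95% interval -0.52 to -0.01), and did not pass in limma (adjusted p = 0.463). It was the best-measured member, with the smallest SE of all 45, and it kept its sign in each alternative that was run, with an adjusted p of 0.111 to 0.793.

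SLC25A6, an ADP/ATP translocase, had 13.12, 11.81 and 12.59 in Shaziling piglets 4, 5 and 6, against 12.55, 13.18 and 12.75 in the Yorkshire piglets 1, 2 and 3. Shaziling 5 was the lowest of the 6 and Shaziling 4 nearly the highest, so the breeds overlapped. The log2 fold change of -0.32 (SE 0.31) became 0.02 without Shaziling 5. SLC25A33, a pyrimidine nucleotide carrier of the inner membrane, had 7.82, 9.57 and 8.61 in Shaziling piglets 4, 5 and 6, against 9.83, 9.22 and 9.40 in Yorkshire piglets 1, 2 and 3. Here Shaziling 5 was high and the other two Shaziling piglets lay below all Yorkshire ones. Its log2 fold change was -0.81 (SE 0.40 and adjusted p = 0.531 in limma), and it was -1.27 without Shaziling 5 and -0.39 without Shaziling 4.

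Among the other tested mitochondrial members, SLC25A1, the citrate exporter that feeds fatty acid synthesis, differed by -0.03 and SLC25A46, an outer membrane protein of mitochondrial fission, by -0.04. SLC25A36, another pyrimidine nucleotide carrier, differed by 0.14. For each of these 3 genes the sign depended on the processing. SLC25A39, which brings glutathione into mitochondria, was Present on 0 Shaziling arrays and 3 Yorkshire arrays, yet its signals were 7.82, 7.24 and 7.48 in Shaziling piglets 4, 5 and 6, against 7.16, 8.09 and 7.66 in Yorkshire piglets 1, 2 and 3. The calls thus split by breed where the signals overlapped, and the log2 fold change was -0.13 (SE 0.31, 95% interval -0.81 to 0.56), with a sign that depended on the arrays included. SLC25A43, a carrier whose substrate is not established, had 2 tested probe sets with log2 fold changes of 0.18 and 0.73, SE 0.24 and 0.56. The 8 tested mitochondrial genes had 2 differences above 0 and 6 below, and their median of -0.08 ranged from -0.27 to 0.06 as each array was left out.

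Mitochondrial carriers were also looked for among probe sets that the rule did not take, mostly ones with a placeholder symbol in the file, but whose current symbol begins with SLC or UCP and a digit. These 62 probe sets lie outside the rule of membership and were added after values had been seen. Of the 31 tested, 0 passed the adjusted threshold, 7 had an unadjusted limma p under 0.05 (3 higher and 4 lower in Shaziling) and 9 did not overlap between breeds. Over all tested probe sets 10.4% had such a p and 16.3% did not overlap, against 22.6% for the p here. Among the 11 tested probe sets of the mitochondrial carrier family, 1 difference was positive and 10 were negative. Their 9 genes had a median of -0.27. No test of this one-sidedness was made.

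SLC25A4, the main ADP/ATP translocase of muscle, had 14.74, 14.90 and 14.68 in Shaziling piglets 4, 5 and 6, against 14.76, 14.61 and 14.70 in Yorkshire piglets 1, 2 and 3. The breeds overlapped closely, and the log2 fold change of 0.08 (SE 0.11) turned to -0.05 after quantile normalization and after cyclic loess. SLC25A5, another ADP/ATP translocase, had 9.29, 9.37 and 9.30 in Shaziling and 9.69, 9.55 and 9.54 in Yorkshire, with no overlap and a log2 fold change of -0.27 (SE 0.19 and adjusted p = 0.673 in limma). SLC25A12, the calcium-regulated aspartate-glutamate carrier, had 12.27, 12.11 and 11.60 in Shaziling and 12.69, 12.49 and 12.23 in Yorkshire. Only Shaziling 4 and Yorkshire 3 crossed, and the log2 fold change was -0.48 (SE 0.21 and adjusted p = 0.475 in limma). SLC25A20, which exchanges acylcarnitine for carnitine in fatty acid oxidation, differed by -0.16 (SE 0.19). UCP3, the uncoupling protein of skeletal muscle, differed by -0.09 (SE 0.32), with the Yorkshire piglets spread from 9.11 to 10.44 around Shaziling values of 9.66 to 9.82. UCP2 was Present on no array.

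The largest difference of this family belonged to SLC25A17, which despite its family name sits in the peroxisome membrane and carries cofactors such as coenzyme A. Its log2 signals were 7.87, 7.13 and 8.39 in Shaziling piglets 4, 5 and 6, against 9.67, 9.59 and 9.49 in Yorkshire piglets 1, 2 and 3. All Shaziling piglets lay more than 1 log2 unit below all Yorkshire piglets. The means were 7.80 ± 0.64 in Shaziling and 9.58 ± 0.09 in Yorkshire (SD, n = 3 each), a log2 fold change of -1.79 (SE 0.32), or 3.45-fold lower. The limma adjusted p of 0.0823 did not pass. With array weights the log2 fold change was -1.71 and passed (adjusted p = 0.0198), and over all alternatives the adjusted p ran from 0.0198 to 0.339. SLC25A37, mitoferrin 1, which brings iron into mitochondria, showed a log2 fold change of -0.66 (SE 0.23 and adjusted p = 0.348 in limma) in its brighter probe set and -0.03 in the other. Present calls for the brighter one came from 1 Shaziling array and 3 Yorkshire arrays.

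**Figure D3:**
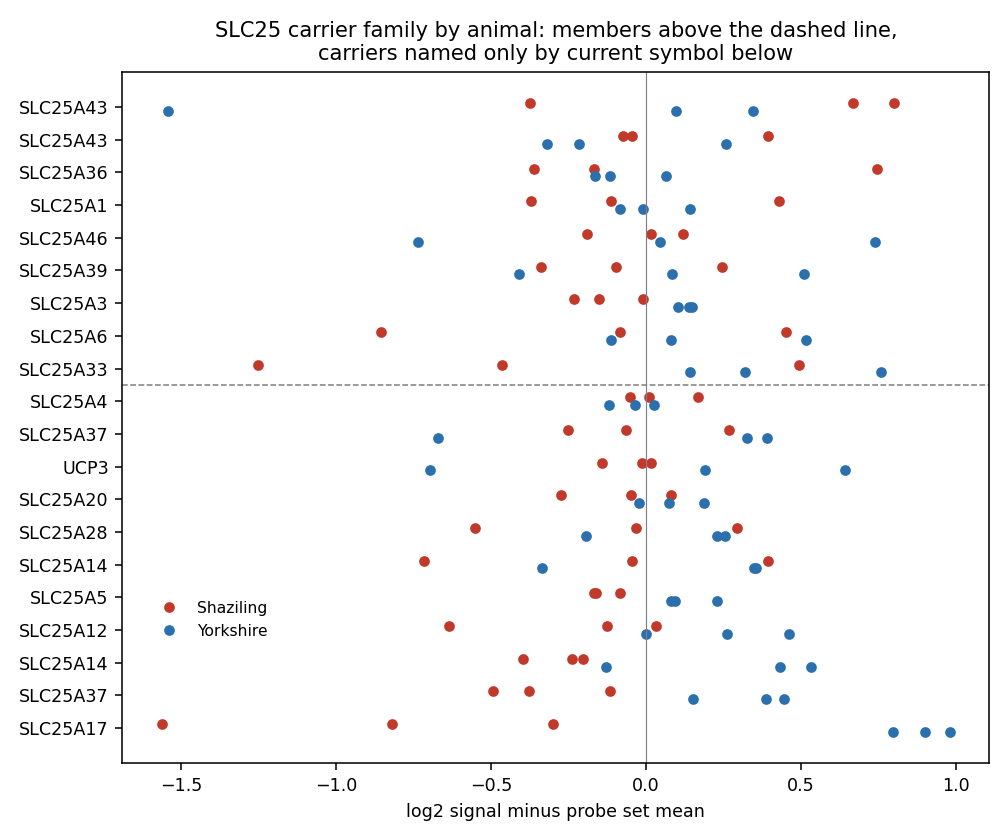
Log2 signal of each piglet minus the mean of the probe set over all 6 arrays, for the SLC25 family and UCP3. Red points are Shaziling and blue points Yorkshire; a gene with several tested probe sets has several rows. SLC25A17 shows the widest gap between breeds, and in most other rows the points mix.

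Proteins that share the mitochondrial import and exchange work without being SLC25 carriers were counted beside them. Of 14 tested genes of this list, 2 had differences above 0 and 12 below, and the median log2 fold change was -0.24. The summed linear signal of the list was 54392 to 67754 in Shaziling and 69483 to 70542 in Yorkshire, without overlap. Such a sum mainly reflects the brightest genes, here VDAC1, TIMM8B and MPC1, so it is not separate from the values of VDAC1 and MPC1 below. Over all tested probe sets 16.3% did not overlap between breeds. SFXN4, a sideroflexin of the inner membrane, was the 1 gene of the list to pass in limma (log2 fold change -1.60, adjusted p = 0.0425). Without Shaziling 6 or without Yorkshire 1, 0 probe sets of the whole array passed, so SFXN4 did not pass there. VDAC1, the main channel of the outer membrane, had 14.39, 14.24 and 14.07 in Shaziling piglets and 14.54, 14.44 and 14.46 in Yorkshire piglets for its brighter probe set. These did not overlap, and the log2 fold change was -0.25 (SE 0.12). The other VDAC1 probe set differed by -0.58 (SE 0.18 and adjusted p = 0.313 in limma), also without overlap. TIMM8A, an import chaperone, differed by -0.41 and MPC1, a subunit of the pyruvate carrier, by -0.24, each without overlap between breeds. The part of this list's shift in the SLC25 values was not tested.

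Sugar carriers gave 5 tested probe sets for 4 genes. SLC5A4, a sodium-coupled member of the glucose transporter family that acts as a glucose sensor in human cells, had log2 signals of 8.71, 8.62 and 8.56 in Shaziling piglets 4, 5 and 6, against 7.81, 7.71 and 8.32 in Yorkshire piglets 1, 2 and 3. All 3 Shaziling values lay close together above all the Yorkshire ones. The mean was 8.63 ± 0.07 in Shaziling and 7.95 ± 0.33 in Yorkshire (SD, n = 3 each), a log2 fold change of 0.68 (SE 0.24), or 1.60-fold, with a limma adjusted p of 0.364. The probe set aligned in the file to chromosome 14, from 49670400 to 49703937 on the minus strand. The assembly behind the positions of the file could not be read from it, and this holds for all positions printed here. SLC5A1, the intestinal sodium-glucose carrier, was Present on 1 Yorkshire array.

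SLC37A4, the glucose-6-phosphate carrier of the endoplasmic reticulum, was tested with a pair of probe sets. The brighter had 10.61, 10.18 and 10.03 in Shaziling piglets 4, 5 and 6, against 10.57, 9.65 and 11.09 in Yorkshire piglets 1, 2 and 3. The lowest and the highest of the 6 were both Yorkshire piglets. Its log2 fold change was -0.17 (SE 0.35) and that of the other probe set -0.20 (SE 0.49). SLC37A1, a related sugar phosphate carrier, showed a log2 fold change of 0.99 (SE 0.56 and adjusted p = 0.589 in limma), with Present calls on 1 Shaziling array and 2 Yorkshire arrays and signals of 5.88 to 7.16 in Shaziling and 4.40 to 6.45 in Yorkshire. Without Yorkshire 2, the lowest, it was 0.38, and over the arrays left out in turn it ran up to 1.40. SLC45A2, known from the melanosomes of pigment cells, differed by -0.19 (SE 0.35). The 4 genes had 2 positive and 2 negative differences.

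Genes that move or dock GLUT4 vesicles were counted as partners. Of 7 tested genes, 3 differences were positive and 4 negative, and 0 passed in limma, with 2 at an unadjusted p under 0.05, a mark reached by 10.4% of all tested probe sets. SORT1, the sortilin that helps form GLUT4 vesicles, had 10.96, 10.96 and 10.88 in Shaziling piglets 4, 5 and 6, against 10.50, 9.61 and 10.67 in Yorkshire piglets 1, 2 and 3. Its log2 fold change was 0.67 (SE 0.28 and adjusted p = 0.436 in limma), without overlap, while its second tested probe set differed by 0.34 and overlapped. TBC1D1, a Rab GTPase-activating protein that holds GLUT4 vesicles inside the fibre, had 7.91, 6.28 and 8.08 in Shaziling piglets, against 8.64, 8.30 and 8.64 in Yorkshire piglets, a log2 fold change of -1.10 (SE 0.44 and adjusted p = 0.416 in limma). Shaziling 5 stood far below the other two Shaziling piglets, and a second TBC1D1 probe set differed by 0.17.

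Lactate transport was represented by SLC16A3, the MCT4 exporter of glycolytic fibres, through a probe set of annotation grade E without a position in the file. Its log2 signals were 9.42, 7.89 and 7.96 in Shaziling piglets 4, 5 and 6, against 9.08, 8.83 and 9.33 in Yorkshire piglets 1, 2 and 3. Shaziling 5 and 6 were lower than every Yorkshire piglet, while Shaziling 4 was the highest of all. This gave a log2 fold change of -0.66 (SE 0.40 and adjusted p = 0.606 in limma). It was -1.16 without Shaziling 4 (adjusted p = 0.133 in limma), -0.39 without Shaziling 5, -0.43 without Shaziling 6 and -0.16 with the share of Present calls per array in the model. Among partners, LDHA, the lactate dehydrogenase subunit of glycolytic muscle, showed a log2 fold change of 0.20 (SE 0.12) without overlap between breeds. BSG, the basigin chaperone that carries MCT1 and MCT4 to the surface, differed by -0.15 (SE 0.32). Of the 6 tested genes of that list, 3 differences were positive and 3 negative, and 0 passed in limma, with 0 at an unadjusted p under 0.05.

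SLC13A4, a sodium-coupled sulfate carrier, had the largest log2 fold change of any member, 1.56, and also the largest SE, 1.26 (limma adjusted p = 0.715). The signals were 5.84, 5.62 and 5.84 in Shaziling piglets 4, 5 and 6, against 0.57, 6.16 and 5.89 in Yorkshire piglets 1, 2 and 3. All of the difference lay in Yorkshire 1, and without it the log2 fold change was -0.26. A probe set titled as similar to SLC10A5, of the bile acid carrier family, had a difference of -0.02 (SE 0.27). Outside the rule of membership, SLC16A10, an aromatic amino acid carrier of the SLC16 family, showed a log2 fold change of 0.41 (SE 0.25 and adjusted p = 0.610 in limma).

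Amino acid carriers had 7 tested probe sets and a median over 5 genes of -0.31. SLC7A7 and SLC3A1 entered this median through grade E sets, each on the strand opposite to the other set described below. With the mean over the probe sets of each gene the median was -0.21. Among the 5 genes was SLC3A2, the 4F2 heavy chain that brings SLC7 light chains to the plasma membrane. It had 8.39, 8.11 and 8.38 in Shaziling piglets 4, 5 and 6, against 7.92, 8.09 and 8.03 in Yorkshire piglets 1, 2 and 3. The breeds did not overlap, but Shaziling 5 and Yorkshire 2 were nearly level. Its log2 fold change was 0.28 (SE 0.22 and adjusted p = 0.712 in limma). SLC7A1, the CAT1 carrier of lysine and arginine, had 8.95, 8.40 and 8.80 in Shaziling piglets, against 8.87, 8.73 and 9.46 in Yorkshire piglets, a difference of -0.31 (SE 0.27) with overlap. SLC1A1, a glutamate carrier also called EAAT3, had 6.51, 6.87 and 5.91 in Shaziling piglets 4, 5 and 6, against 6.99, 7.02 and 6.85 in Yorkshire piglets 1, 2 and 3. Shaziling 5 lay just above the lowest Yorkshire value, and the log2 fold change was -0.52 (SE 0.32 and adjusted p = 0.618 in limma). Another 3 SLC1A1 probe sets were Present on no array.

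SLC7A7, the y+LAT1 light chain that exports cationic amino acids together with SLC3A2, was tested with 2 probe sets that did not move together. The brighter had 9.24, 8.44 and 8.83 in Shaziling piglets 4, 5 and 6, against 9.28, 9.94 and 8.89 in Yorkshire piglets 1, 2 and 3, a log2 fold change of -0.53 (SE 0.32). The other differed by 0.11 (SE 0.29). The file aligned the brighter set to chromosome 7, from 82469329 to 82469663 on the minus strand, and the other to 82464742 to 82469782 on the plus strand.

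SLC3A1, the rBAT heavy chain known from kidney and intestine, had a bright probe set with 11.74, 11.46 and 12.04 in Shaziling piglets 4, 5 and 6, against 11.43, 11.60 and 11.13 in Yorkshire piglets 1, 2 and 3. The breeds overlapped through Shaziling 5 and Yorkshire 2, and the log2 fold change was 0.36 (SE 0.21 and adjusted p = 0.596 in limma). Another probe set, listed in the file for both SLC3A1 and a placeholder gene and so left unnamed, differed the other way, by -0.38 (SE 0.32). The bright set aligned to chromosome 3, from 89537048 to 89537398 on the plus strand, while the other ran from 89536749 to 89562984 on the minus strand. PREPL, a peptidase gene that overlaps SLC3A1 at one end in the RefSeq gene table, had its own probe set on the plus strand at 89534802 to 89536670. That set had 9.79, 9.66 and 9.93 in Shaziling piglets and 9.44, 9.81 and 9.14 in Yorkshire piglets, a log2 fold change of 0.33 (SE 0.23). Which of the 2 genes the bright set reads was not settled with the files used here, though it stood for SLC3A1 in the medians over genes.

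Inorganic ion carriers were the least detected of the larger groups, and no probe set among the 16 was Present on all 6 arrays. SLC26A6, an anion exchanger for chloride, bicarbonate and oxalate, had 7.92, 7.45 and 7.04 in Shaziling piglets 4, 5 and 6, against 7.84, 8.39 and 7.72 in Yorkshire piglets 1, 2 and 3. The breeds overlapped through Shaziling 4, and the log2 fold change was -0.51 (SE 0.31 and adjusted p = 0.606 in limma). SLC26A11, a sulfate carrier, differed by 0.14 (SE 0.32). SLC12A4, the potassium-chloride cotransporter KCC1, had 5.63, 5.67 and 5.36 in Shaziling piglets, against 5.27, 4.45 and 6.82 in Yorkshire piglets. The Yorkshire values enclosed all the Shaziling ones, and the difference was 0.04 (SE 0.58). The scaffold proteins SLC9A3R1 and SLC9A3R2, which tether a sodium-proton exchanger and are not carriers themselves, differed by -0.33 (SE 0.42) and -0.17 (SE 0.25).

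The sodium pump sets up the gradient on which sodium-coupled carriers run. Of 7 tested genes for its subunits and regulators, 4 differences were positive and 3 negative, with 0 past the adjusted threshold in limma and 0 at an unadjusted p under 0.05 among the probe sets taken for the genes.

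Metal ion carriers held the second-lowest p of the members. SLC39A1, the ZIP1 zinc importer of the plasma membrane, had log2 signals of 10.32, 9.94 and 10.48 in Shaziling piglets 4, 5 and 6, against 9.76, 9.14 and 9.61 in Yorkshire piglets 1, 2 and 3. Each Shaziling piglet lay above each Yorkshire piglet. The means were 10.24 ± 0.28 in Shaziling and 9.51 ± 0.33 in Yorkshire (SD, n = 3 each), a log2 fold change of 0.74 (SE 0.25), or 1.67-fold, with a limma adjusted p of 0.334. A second SLC39A1 probe set had 7.82, 7.36 and 7.85 in Shaziling piglets and 7.23, 7.64 and 8.31 in Yorkshire piglets, with a difference of -0.05 (SE 0.32). The file placed the first on chromosome 4 from 99961596 to 99961914 and the second from 99770503 to 99774772, both on the plus strand and apart from each other.

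SLC41A3, a magnesium carrier, had 9.59, 9.55 and 9.48 in Shaziling piglets 4, 5 and 6, against 8.65, 9.38 and 9.24 in Yorkshire piglets 1, 2 and 3. The Shaziling values were tight and above all Yorkshire ones, of which Yorkshire 1 was far the lowest. The log2 fold change was 0.45 (SE 0.24 and adjusted p = 0.566 in limma), and it was 0.23 without Yorkshire 1. The zinc carriers of the secretory pathway overlapped between breeds. SLC30A5, which loads zinc into the Golgi, differed by -0.34 (SE 0.26), SLC30A7, of like function, by -0.20 (SE 0.26), and SLC39A7, which releases zinc into the cytosol, by -0.39 (SE 0.32). SLC39A14, which imports zinc and iron, differed by 0.02 (SE 0.29). Over the 6 genes 3 differences were positive and 3 negative.

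Outside the rule of membership, SLC31A2, a copper carrier of internal membranes, had 9.74, 9.68 and 9.78 in Shaziling piglets 4, 5 and 6, against 8.54, 8.84 and 9.10 in Yorkshire piglets 1, 2 and 3. The Shaziling values differed little among themselves and all lay above the Yorkshire ones. The log2 fold change was 0.91 (SE 0.22 and adjusted p = 0.196 in limma). With array weights it was 1.09 and passed (adjusted p = 0.0260). A second, dimmer SLC31A2 probe set was Present on 3 Shaziling arrays and 0 Yorkshire arrays with at least 3.94-fold higher signal in Shaziling (adjusted p = 0.352 in limma). Genes of iron, zinc and copper handling had 4 positive and 2 negative differences among 6 tested, none past the threshold in limma and 2 at an unadjusted p under 0.05 (10.4% of all tested probe sets). TF, the serum iron carrier transferrin, had 7.82, 7.35 and 7.87 in Shaziling piglets and 6.10, 6.64 and 5.93 in Yorkshire piglets, a log2 fold change of 1.45 (SE 0.31 and adjusted p = 0.130 in limma). MT1A, a metallothionein that binds zinc and copper, had 9.20, 10.02 and 9.51 in Shaziling piglets, against 8.28, 9.01 and 8.86 in Yorkshire piglets. Its log2 fold change was 0.86 (SE 0.29 and adjusted p = 0.338 in limma).

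Markers of other cell types were read on the same arrays, since several carriers are used by cells other than fibres. Of the neutrophil markers 1 gene was tested, S100A9, a calprotectin subunit, with a linear signal of 62.9 to 101 in Shaziling and 8.70 to 29.6 in Yorkshire and Present calls on 3 Shaziling arrays and 0 Yorkshire arrays. S100A9 was thus tested only through the breed where it was higher. S100A8, its partner, overlapped between breeds, and S100A12 was Present on no array. The summed linear signal of the Schwann cell markers was 1055 to 1207 in Shaziling and 828 to 964 in Yorkshire. The sums of the macrophage, endothelial, adipocyte, fibroblast, smooth muscle and T cell lists overlapped between breeds. Within the endothelial list VWF, the von Willebrand factor, differed by 2.25 without overlap (adjusted p = 0.120 in limma), and CDH5, the endothelial cadherin, by -0.68 with overlap (adjusted p = 0.468 in limma). One probe set of FABP4, a fatty acid binding protein of adipocytes, differed by 2.52 (SE 0.84 and adjusted p = 0.338 in limma) and the other by 0.47, both with overlap. In the same list ADIPOQ, which encodes adiponectin, differed the other way, by -0.52 (SE 0.68), and LEP, which encodes leptin, by 0.24 (SE 0.33), both with overlap. The part of these cells in the SLC39A1, SLC31A2 and TF values was not tested.

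Nucleotide sugar carriers of the SLC35 family supply sugar donors to the Golgi and the endoplasmic reticulum, and 9 of their 12 probe sets, counted with the nucleoside carriers, were tested. The lowest p of all members was that of SLC35F5, a member whose substrate is not established. The log2 signals were 11.22, 11.61 and 11.89 in Shaziling piglets 4, 5 and 6, against 10.91, 10.93 and 10.99 in Yorkshire piglets 1, 2 and 3. The Yorkshire piglets were nearly alike, and all Shaziling piglets stood above them by different amounts. Shaziling averaged 11.57 ± 0.33 and Yorkshire 10.94 ± 0.04 (SD, n = 3 each), a log2 fold change of 0.63 (SE 0.20), or 1.55-fold, with a limma adjusted p of 0.323. Over the alternatives its adjusted p ran from 0.0509 with array weights to 0.675. A second SLC35F5 probe set had 8.09, 8.90 and 8.87 in Shaziling piglets and 8.15, 8.20 and 8.23 in Yorkshire piglets, a difference of 0.43 (SE 0.27). A probe set titled as similar to SLC35F5, which aligned nearby on chromosome 15 but on the opposite strand, differed by -0.41 (SE 0.39).

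SLC35C2, a relative of the GDP-fucose carrier, had the larger negative difference of the 2 members that lay lower in Shaziling without overlap. It had 6.38, 6.12 and 6.30 in Shaziling piglets 4, 5 and 6, against 7.23, 6.71 and 7.03 in Yorkshire piglets 1, 2 and 3. Present calls came from 2 Shaziling arrays and 3 Yorkshire arrays. The log2 fold change was -0.72 (SE 0.29), or 1.65-fold, with a limma adjusted p of 0.428. SLC35B3, which carries the sulfate donor PAPS, ran from 7.26 to 7.92 in Shaziling piglets, against 7.87 to 8.14 in Yorkshire piglets, a difference of -0.49 (SE 0.26) with overlap through Shaziling 6. SLC35A1, the CMP-sialic acid carrier, differed by -0.23 (SE 0.24). SLC35B2, the other PAPS carrier, and SLC35A3, the UDP-N-acetylglucosamine carrier, differed by 0.02 and 0.01. Outside the rule of membership, SLC19A2, a thiamine carrier, had 6.70, 7.77 and 8.57 in Shaziling piglets, against 8.99, 8.93 and 8.93 in Yorkshire piglets. The Yorkshire piglets were alike and the Shaziling piglets scattered below them, with a log2 fold change of -1.27 (SE 0.41 and adjusted p = 0.323 in limma). SLC18A2, the vesicular monoamine carrier, differed by 0.51 (SE 0.20) in one probe set and by -0.11 (SE 0.20) in the other.

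**Figure D4:**
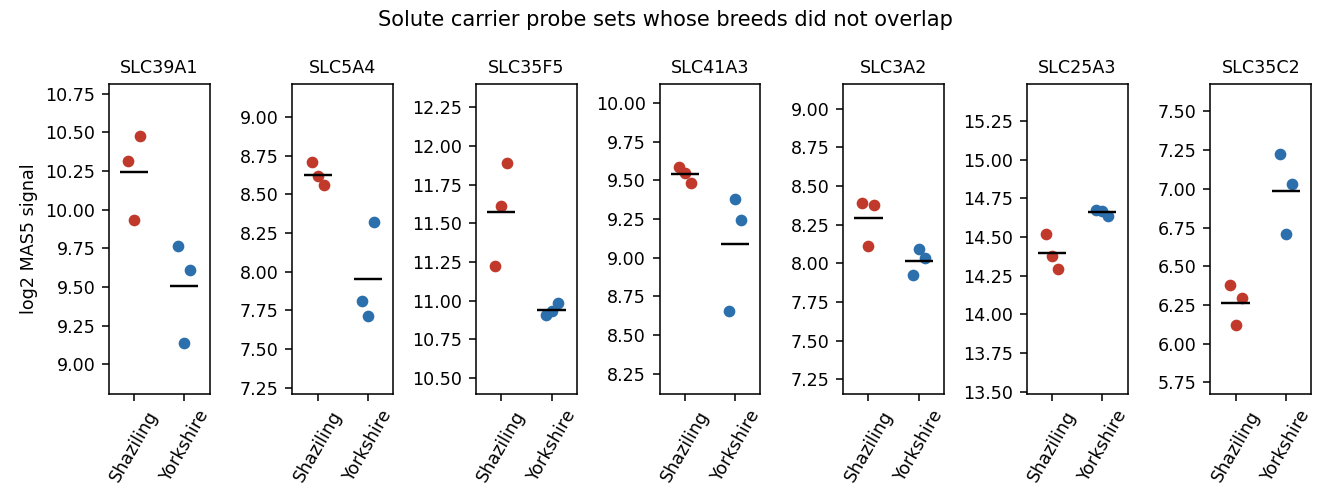
Log2 MAS5 signal of the 7 solute carrier probe sets in which all 3 piglets of one breed lay above all 3 of the other; points are piglets, bars are breed means, and each panel spans the same number of log2 units. SLC39A1, SLC5A4, SLC35F5, SLC41A3 and SLC3A2 were higher in Shaziling, and SLC25A3 and SLC35C2 lower.

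Taking all roles, the signals of the breeds did not overlap in 7 of the 45 tested probe sets, or 15.6%, against 16.3% of all tested probe sets. Of the 7, 5 were higher in Shaziling and 2 lower, where 7.42% of all tested probe sets were higher and 8.89% lower. The share is near that of the array as a whole.

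Probe sets of one gene were set against each other, as a description. The 5 genes with 2 tested member probe sets were compared over the 6 arrays, all of which the probe sets share. The Pearson correlation was 0.994 for SLC37A4, 0.896 for SLC35F5 and 0.586 for SLC25A43. It was 0.060 for SLC39A1 and -0.117 for SLC7A7. In SLC37A4 both probe sets put Yorkshire 2 lowest and Yorkshire 3 highest, so the wide spread among Yorkshire siblings was seen with both. In SLC39A1 the breeds were apart in the brighter probe set and overlapped in the other.

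**Figure D5:**
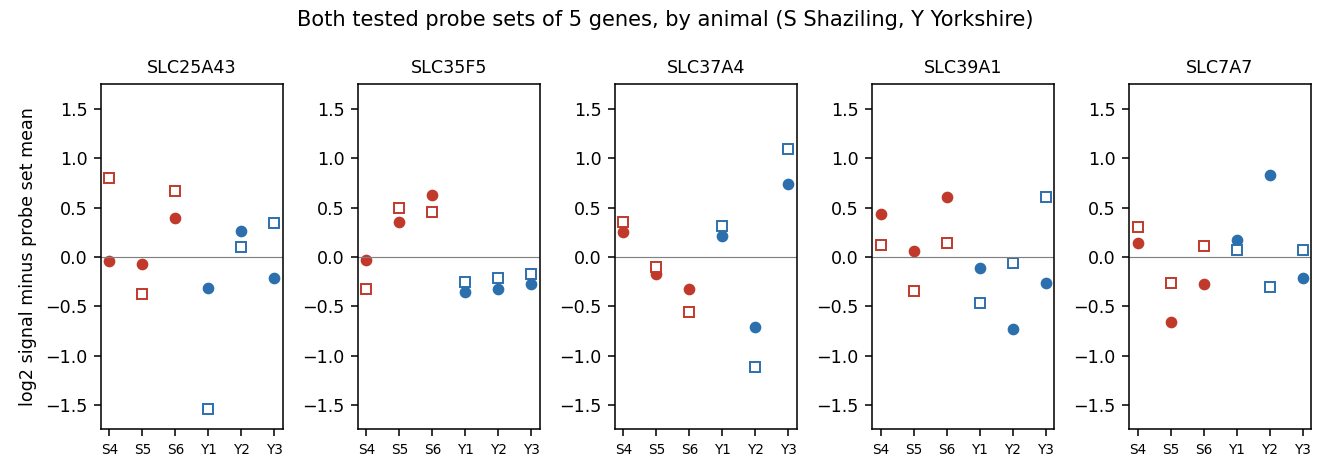
Log2 signal minus the mean of the probe set, by piglet, for the 5 genes with 2 tested probe sets; filled circles are the brighter probe set, open squares the dimmer one, red is Shaziling (S) and blue Yorkshire (Y). The SLC37A4 symbols move together (Pearson correlation 0.994 over 6 arrays), and those of SLC39A1 and SLC7A7 do not.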

How the data were processed

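Total RNA from the longissimus dorsi of 6 piglets was hybridised to Affymetrix porcine arrays after 3' labelling, per the labels' protocols. The authors deposited log2 MAS5 signals with Present, Marginal or Absent calls. MAS5 is named in the submitters' processing notes, with a version not given in the sources used here. The 2% trimmed mean of the linear signals was near 500 on every array, so the arrays had been scaled to each other. The deposited tables held 0 differing values. The number of arrays limits the precision.

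Here no further normalization was applied. Probe sets Present on at least 3 of 6 arrays were fitted with limma 3.58.1 in R 4.3.3 (lmFit, eBayes with trend) for the difference of Shaziling minus Yorkshire. The p-values were adjusted after Benjamini-Hochberg over 14413 probe sets, with a threshold of 0.05. The script was tested on simulated data. A gene's median used its tested probe set of highest mean signal. Where a breed had no Present call, its value was set no lower than the lowest Present signal of each array. The fold of the means taken from this leaves out the spread among piglets. Symbols were updated through Entrez IDs and a RefSeq gene table of Sscrofa11.1, used for names alone: of the 91 named members, 75 kept their symbol, 12 were updated and 4 had an ID outside the table.

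Named genes were those of highest signal or smallest p in each role group, carriers well known in muscle, members without overlap and a 2-fold difference, and partner genes of smallest p. Chosen after their values were seen were SLC2A2, SLC5A1, SLC25A1, SLC25A36, SLC25A39, SLC25A46, SLC35B2, the unnamed probe sets, PREPL, BSG, MPC1, the named cell type markers and, outside the rule of membership, SLC16A10, SLC18A2, SLC19A2, SLC25A17, SLC25A37 and SLC31A2. The members and lists were chosen with earlier results of these data known. Alternatives changed the filter, the normalization, the offset, the variance model, array weights, a covariate and the arrays included. Results for certain genes are not reported here.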

Additional observations from a re-analysis of the deposited data

How the results depend on the processing

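None of the solute carriers that the rule took as members passed the adjusted threshold in any version that was run. The number past it over all tested probe sets was 31. It was 13 without the filter, 19 among probe sets Present on all 6 arrays, 8 without the intensity trend and 364 with array weights. Leaving out each array in turn gave 0 to 27, with 0 without Shaziling 6 or Yorkshire 1 (1096 and 1020 at an unadjusted limma p under 0.05), 5 without Shaziling 5 and 11 without Yorkshire 2. The cause of these shifts was not tested, though a left-out array or a narrower filter also means fewer values. No paired analysis was possible because the replicate numbers of the breeds do not meet: 1 to 3 are Yorkshire and 4 to 6 Shaziling.

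The median over the solute carrier genes ranged from -0.20 to 0.018 as each array was left out. For amino acid carriers this range was -0.42 to -0.088, for inorganic ion carriers -0.31 to 0.33, for metal ion carriers -0.24 to -0.0042 and for mitochondrial carriers -0.27 to 0.063. With the share of Present calls per array in the model the median was -0.040 for amino acid carriers, 0.29 for inorganic ion carriers and 0.085 for metal ion carriers. The cause was not tested.

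Of 46 named carrier genes, 17 changed sign in at least 1 of the alternatives. Quantile normalization turned SLC25A1 (0.043), SLC25A46 (0.036) and SLC25A4 (-0.052), and cyclic loess turned SLC25A1 (0.045), SLC25A46 (0.039) and SLC25A4 (-0.049). An offset of 50 turned SLC12A4 (-0.061) and SLC35A3 (-0.0004), and the mean over probe sets turned SLC18A2 (0.20). Array weights turned SLC25A36 (-0.016), SLC25A39 (0.15), SLC25A46 (0.0079), SLC39A14 (-0.10) and SLC45A2 (0.11). That covariate turned SLC25A1 (0.15), SLC25A36 (-0.087), SLC35A3 (-0.16), SLC35B2 (-0.012), SLC37A4 (0.21), SLC9A3R1 (0.14) and UCP3 (0.16). Leaving out 1 array gave -0.49 to 0.69 for SLC12A4, -0.26 to 2.54 for SLC13A4, -0.26 to 0.14 for SLC25A1, -0.19 to 0.36 for SLC25A36, -0.36 to 0.10 for SLC25A39, -0.41 to 0.33 for SLC25A46 and -0.63 to 0.025 for SLC25A6. It gave -0.0024 to 0.33 for SLC26A11, -0.16 to 0.29 for SLC35A3, -0.10 to 0.21 for SLC35B2, -0.56 to 0.16 for SLC37A4, -0.19 to 0.14 for SLC39A14, -0.40 to 0.032 for SLC45A2, -0.67 to 0.17 for SLC9A3R1 and -0.46 to 0.20 for UCP3. The cause of each was not tested. SLC25A17 and SLC31A2, both outside the rule of membership, passed the threshold with array weights alone. With 3 arrays per breed and a median SE of 0.31 on the log2 scale, small differences of dim carriers were not detectable here. The limit also reached larger differences and brighter carriers. In the main version SLC25A17, with a Yorkshire mean of 9.58, had a log2 fold change of -1.79 and did not pass (limma adjusted p = 0.0823). Among the 45 tested members, the interval lay wholly within 1 log2 unit of no difference for only 24.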
